A study of Mus musculus with 24 samples.

Results

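Transcription factors of the neural crest and of mesenchyme were followed by RNA-Seq in mouse embryos at E18.5, just before birth, in the ductus arteriosus (DA) and the ascending aorta. The DA is the fetal vessel that joins the pulmonary artery to the aorta. The genes were Pax3, Msx1, Msx2, Sox9, Snai1, Snai2, Zeb2, Gata4, Gata6 and Prrx1. They were chosen by symbol, with earlier results of these data known, and all 10 had a row among the 54752 genes of the count table. Of these 10, 9 passed the filter on low counts and were tested among 16463 genes, and Pax3 did not. The Prdm6-deficient embryos were Wnt1Cre;PRDM6f/f, in which Cre driven by Wnt1 deletes the floxed gene in neural crest cells and leaves it in other cells of the vessel wall. Control embryos were mostly PRDM6wt/f without Cre, and the control animals also included a Wnt1Cre;PRDM6wt/wt embryo and a PRDM6wt/wt embryo. The libraries analysed were 7 control DA, 5 Prdm6-deficient DA, 6 control aorta and 5 Prdm6-deficient aorta libraries, with totals of 15163974 to 22610547 expected counts. Prdm6-deficient DA replicates 1 and 2 were each pooled from 2 embryos. The sample labelled as replicate 4 of that group was not analysed here. The paper's methods state a C57/Black6 background.

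Neural crest cells leave the dorsal neural tube, lose their epithelial contacts and migrate, and the cardiac neural crest supplies the smooth muscle cells (SMCs) of the outflow vessels. Pax3, Msx1 and Msx2 act at the neural plate border, Sox9 and the Snail proteins act as crest cells form and detach, and Zeb2 is, like the Snail proteins, a zinc finger repressor of E-cadherin. Prrx1 marks mesenchyme, and Gata4 and Gata6 are zinc finger activators of heart and vessel development. Several of these genes return later in other roles, Sox9 as the master regulator of cartilage and Pax3 in melanocyte precursors.

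The targeted gene was measured first. Prdm6 ranged from 85.0 to 128 CPM (counts scaled to library size) with a median of 104 in control DA. It was 78.1, 70.8, 77.7, 78.5 and 58.6 CPM in the Prdm6-deficient DA libraries. In the aorta it ranged from 95.6 to 136 CPM with a median of 109 in controls, against 69.6, 70.0, 68.5, 81.2 and 61.9 CPM in Prdm6-deficient libraries. Every Prdm6-deficient library lay below every control library of its vessel, and Prdm6 transcripts remained. The counts cover the whole gene and do not single out the floxed part. The log2 fold change was −0.57 ± 0.11 (SE) in the DA (edgeR adjusted p = 0.000553) and −0.69 ± 0.11 in the aorta (edgeR adjusted p = 0.00017).

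A gene was called when its Benjamini-Hochberg adjusted p in edgeR's quasi-likelihood test was below 0.01 and its log2 fold change was beyond 0.5 either way. In Prdm6-deficient DA against control DA, 3 of the 9 members tested were called, beside 894 of all genes tested (5.43%). Sox9 was lower, where 2.82% of all genes were called lower, and Snai2 and Zeb2 were higher, where 2.61% were called higher. In Prdm6-deficient aorta against control aorta, 2 of 9 were called, beside 404 of all genes (2.45%). There Sox9 was lower (0.826% of all genes) and Zeb2 was higher (1.63%). In control DA against control aorta, 1 of 9 was called, Sox9, which was higher in DA, beside 882 of all genes (5.36%), with 3.16% called higher and 2.19% called lower. In Prdm6-deficient DA against Prdm6-deficient aorta, Sox9 was again the 1 member called, beside 44 of all genes (0.267%). For the genotype effect in DA minus that in aorta, edgeR called 0 members, as did DESeq2 and limma-voom, beside 425 of all genes (2.58%). There 3 members had an unadjusted p below 0.05 in edgeR, beside 2619 of all genes (15.91%). This share of all genes was 23.73% in the DA and 14% in the aorta genotype comparison. It was 21.64% between the control vessels and 10.05% between the Prdm6-deficient vessels. Counts of list genes at this threshold given below stand beside these shares. Members and lists were chosen with earlier results of these data known, so no excess over all genes is read from their counts or medians. The genotype comparisons and the vessel comparisons share libraries, so their counts are given side by side only.

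The groups of 2 members, Sox9 and Zeb2, did not overlap between genotypes in the DA, as for 932 of all genes tested (5.66%). In the aorta the groups of 3 members, Sox9, Zeb2 and Msx1, did not overlap, as for 1145 of all genes (6.95%). Between the control vessels this held for 1 member, Sox9, and 883 of all genes (5.36%). Between the Prdm6-deficient vessels it held for 2, Sox9 and Gata4, and 580 of all genes (3.52%). The median log2 fold change of the 9 members was 0.32 in the DA genotype comparison and 0.34 in the aorta, against 0.01 and −0.001 over all genes tested.

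**Figure D1:**
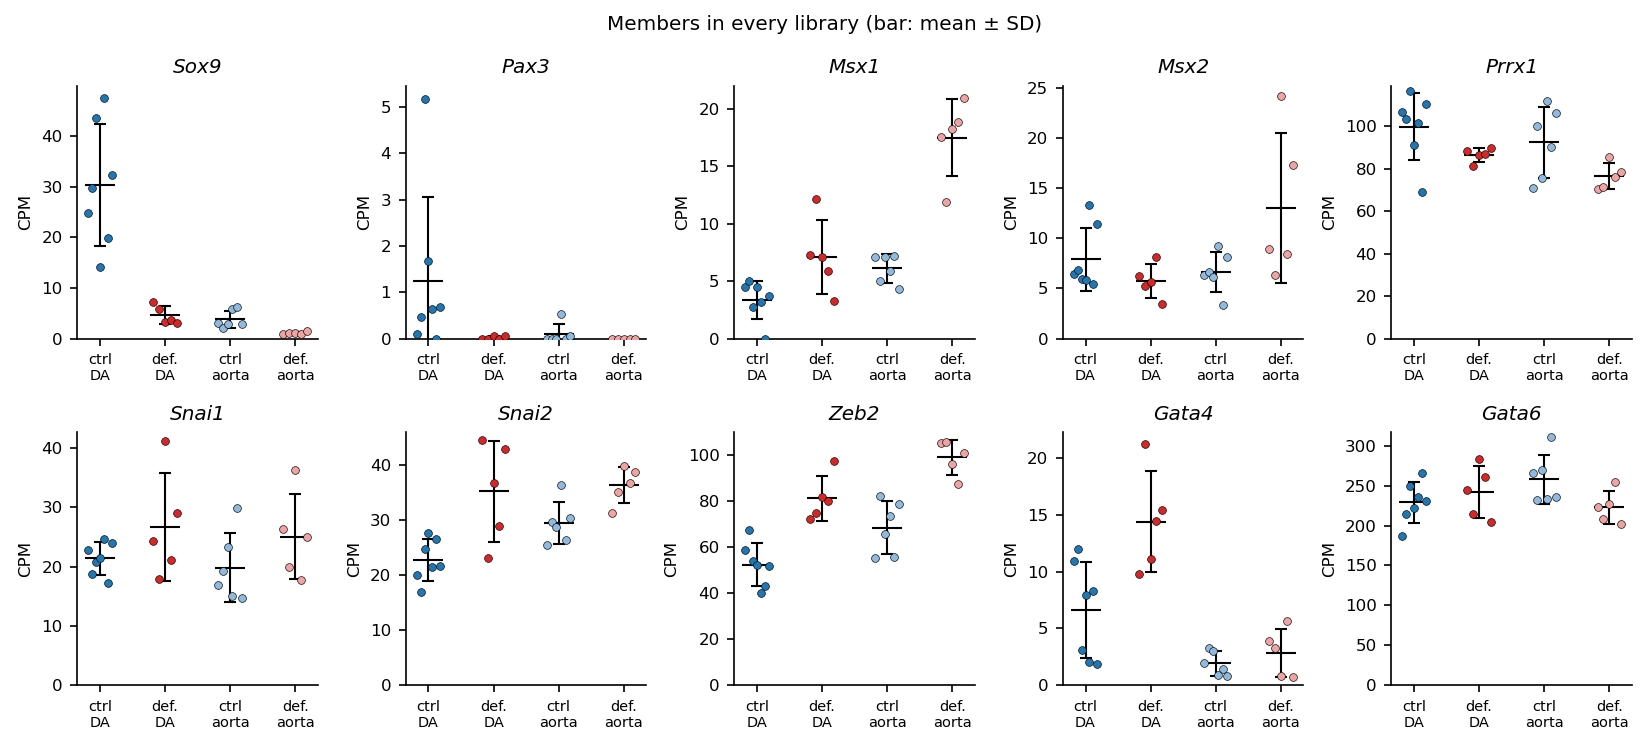
CPM of the 10 members in every library, by group, with points for libraries and bars for the mean ± SD (ctrl, control; def., Prdm6-deficient; n = 7, 5, 6 and 5 libraries from left to right). Sox9 lies between 14.2 and 47.6 CPM in control DA and at 7.23 CPM or less in every other group, and Zeb2 lies higher in both Prdm6-deficient groups than in their controls.

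Sox9 (ENSMUSG00000000567.5, chromosome 11, 112782224 to 112787760, plus strand, mm10) had the largest log2 fold change in size of the 9 tested members in both genotype comparisons and between the control vessels. In control DA it ranged from 14.2 to 47.6 CPM with a median of 29.8. In Prdm6-deficient DA it was 7.23, 5.91, 3.34, 3.56 and 3.14 CPM. In control aorta it ranged from 2.08 to 6.16 CPM with a median of 3.0, and in Prdm6-deficient aorta it was 0.901, 1.15, 1.02, 0.977 and 1.51 CPM. Control DA stood above the other groups in every library, the Prdm6-deficient DA and control aorta libraries spanned much the same values, and the Prdm6-deficient aorta lay below all of them. The mean in Prdm6-deficient DA was 15.3% of that in control DA, and the mean in Prdm6-deficient aorta was 29.1% of its control.

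Sox9 fell by 2.71 on the log2 scale in Prdm6-deficient DA (95% interval −3.38 to −2.05, edgeR adjusted p = 9.64e-07), lower in 5 of 5 libraries. It fell by 1.78 in Prdm6-deficient aorta (−2.48 to −1.08, edgeR adjusted p = 0.00122). Between the control vessels it was 7.92-fold higher in the DA (log2 fold change 2.98, 2.36 to 3.61, edgeR adjusted p = 7.25e-08) and between the Prdm6-deficient vessels 4.14-fold higher in the DA (2.05, 1.33 to 2.77, edgeR adjusted p = 0.0028). The genotype effect in DA minus that in aorta was −0.93 (−1.86 to −0.01), which did not pass the adjustment (edgeR adjusted p = 0.307). Within the 2 series of animal numbers, the log2 fold change of Sox9 in the DA was −2.97 in the first (edgeR adjusted p = 0.00146) and −2.62 in the second (edgeR adjusted p = 0.0047). The first series held 2 control and 3 Prdm6-deficient DA libraries, and the second 5 and 2. In the aorta it was −1.54 in the first series, with 1 control library (edgeR adjusted p = 0.731), and −1.75 in the second (edgeR adjusted p = 0.0447). Between the control vessels it was 3.65 in the first series (edgeR adjusted p = 0.0235) and 2.79 in the second (edgeR adjusted p = 4.27e-05), and between the Prdm6-deficient vessels 2.23 (edgeR adjusted p = 0.257) and 1.92 (edgeR adjusted p = 0.13). The aortic call was lost with limma-voom (log2 fold change −1.70, adjusted p = 0.333). Between the Prdm6-deficient vessels the call was lost with the animal as a block (1.86, edgeR adjusted p = 0.0746), with limma-voom (1.93, adjusted p = 0.373), with only these groups fitted (2.06, edgeR adjusted p = 0.0213) and without the pooled libraries (1.58, edgeR adjusted p = 0.0693). It was also lost without each of 6 single libraries, which were Prdm6-deficient DA replicates 1 and 2 and Prdm6-deficient aorta replicates 1, 2, 3 and 4, with adjusted p up to 0.0126.

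Sox9 drives cartilage collagens and aggrecan in chondrocytes. Of the 18 tested genes of the Sox9 cartilage list, 4 were higher and 1 was lower with Prdm6 deficiency in the DA (median log2 fold change 0.31, against 0.01 over all genes). The summed CPM of the list was 237 ± 46.2 (SD, n = 7) in control DA and 521 ± 31.6 (n = 5) in Prdm6-deficient DA, with 435 ± 40.1 (n = 6) in control aorta and 512 ± 78.2 (n = 5) in Prdm6-deficient aorta. Col11a1, a fibrillar collagen chain, rose by 2.19 (edgeR adjusted p = 5.03e-06) and Hapln1, which links aggrecan to hyaluronan, by 1.91 (edgeR adjusted p = 2.28e-06) in the DA. Both also rose in the aorta, by 2.09 and 1.66 (edgeR adjusted p = 4.19e-05 and 4.55e-05). Acan, the aggrecan core protein and most abundant gene of the list, averaged 85.7 ± 47.7 CPM (SD, n = 7) in control DA and 261 ± 28.5 (n = 5) in Prdm6-deficient DA. Without Acan the list summed to 151.7 ± 23.03 CPM (SD, n = 7) in control DA, 259.5 ± 32.5 (n = 5) in Prdm6-deficient DA, 137 ± 18.3 (n = 6) in control aorta and 268.5 ± 34.15 (n = 5) in Prdm6-deficient aorta, so the lower sum of control DA against control aorta rests on Acan. Between the control vessels 3 of the 18 genes were higher and 2 lower in the DA (median 0.33). Col9a2, a collagen IX chain, fell by 1.65 with Prdm6 deficiency in the DA (edgeR adjusted p = 0.00291). In the aorta 3 of 18 genes of the list were higher (median 0.60).

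Markers of smooth muscle moved with Sox9 in the DA. Of 12 smooth muscle markers tested, 9 were lower in Prdm6-deficient DA (median log2 fold change −0.89). Their summed CPM ranged from 15503 to 27355 in control DA and from 10727 to 12976 in Prdm6-deficient DA, with Acta2 (smooth muscle actin) the most abundant. The sum was 11816 ± 1365 CPM (SD, n = 6) in control aorta and 11279 ± 688 (n = 5) in Prdm6-deficient aorta, where 2 of 12 were lower and 1 was higher. Des (desmin) fell by 3.98 (edgeR adjusted p = 2.38e-09) in the DA. Actg2 (an enteric smooth muscle actin) fell by 2.39 there (edgeR adjusted p = 2.57e-09), although it and Acta2 are near-identical and RSEM could split their reads. In these bulk samples fewer cells of a type and less RNA per cell cannot be told apart, and the part of smooth muscle cells in the Sox9 values was not tested.

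**Figure D2:**
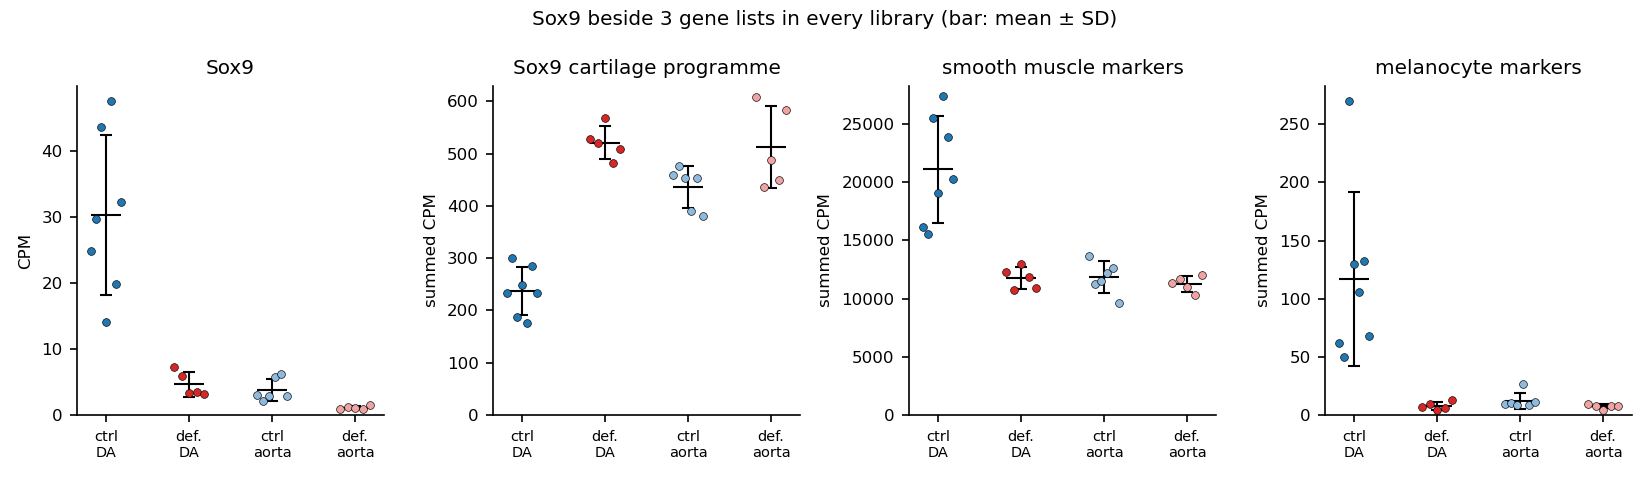
CPM of Sox9 and summed CPM of the Sox9 cartilage list, of the smooth muscle markers and of the melanocyte markers in every library, with bars for the mean ± SD. Control DA is highest for Sox9, the smooth muscle markers and the melanocyte markers, and its sum of 237 CPM for the cartilage list lies below that of control aorta through Acan.

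The 3 genes whose log2 CPM followed Sox9 most closely over the 23 libraries, of 12979 compared, were Cthrc1 (Pearson r = 0.948), Lgr6 (0.932) and Spon2 (0.931). After the group means were taken out, r was 0.512, 0.582 and 0.236. Among the members, the lowest r with Sox9 was that of Zeb2 (−0.840), followed by Snai2 (−0.704). These r are a description over libraries that share 4 groups.

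Pax3 (ENSMUSG00000004872.15), a paired box factor of neural crest and melanocyte precursors, passed the detection floor of 3 counts, which is 0.133 to 0.198 CPM, mostly in control DA. In control DA the counts of replicates 1 to 7 were 2, 9, 93, 25, 12, 0 and 14. In Prdm6-deficient DA they were 0, 0, 1, 0 and 1, in control aorta 0, 0, 0, 11, 0 and 1, and in Prdm6-deficient aorta 0 in each of 5 libraries. Control DA had 5 libraries above the floor, control aorta 1 and the Prdm6-deficient groups 0, and control DA replicate 6 had none. Without the filter on low counts, edgeR gave an adjusted p of 0.0453 for the DA genotype comparison, and DESeq2, which kept Pax3, gave an adjusted p of 0.0089. The first and second series of animals gave adjusted p of 0.145 and 0.421 in edgeR.

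Melanocyte markers were high in the same group. The summed CPM of the 10 melanocyte markers was 62.3, 49.9, 270, 130, 106, 132 and 67.8 in control DA replicates 1 to 7. It was 4.17 to 13.2 in Prdm6-deficient DA, 8.37 to 26.4 in control aorta and 4.66 to 9.80 in Prdm6-deficient aorta. Control DA replicate 3 had both the highest sum and the most Pax3, and control aorta replicate 4, with 26.4 CPM, was the aortic library with 11 Pax3 counts. Control DA replicate 6 did not follow this, with 132 CPM of melanocyte markers, second in its group, and 0 Pax3 counts. Of the 9 markers tested, 5 were lower in Prdm6-deficient DA with edgeR, 7 with DESeq2 and 2 with limma-voom. For the aorta edgeR called 0 of 9, as did DESeq2 and limma-voom, and 3 had an unadjusted p below 0.05. No median fold change is given, because several markers were at or below the floor in whole groups. Dct, a melanin enzyme and the most abundant of them, averaged 54.7 ± 38.5 CPM (SD, n = 7) in control DA, and it and 5 other markers were at or below the floor in every Prdm6-deficient DA library. Of these markers, Oca2 was at or below the floor in every control DA library too. Tyrp1, another melanin enzyme, averaged 15.2 ± 9.14 CPM in control DA. Pax3 is also a factor of skeletal muscle precursors, and the 12 skeletal muscle markers, with Ckm the most abundant, summed to 53.1 to 245.9 CPM in control DA, 22.8 to 51.45 in Prdm6-deficient DA, 8.44 to 29.55 in control aorta and 21.8 to 29.3 in Prdm6-deficient aorta. Of the 7 tested, 1 was lower in the DA (median −1.06), which was Ckm (−1.94, edgeR adjusted p = 0.00293). For the aorta edgeR called 0 of 7 (median 0.24), as did DESeq2 and limma-voom, and 2 had an unadjusted p below 0.05. The part of melanocytes and of skeletal muscle in the Pax3 counts was not tested.

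Msx1 and Msx2 are homeobox repressors that BMP signals induce. Msx1 (ENSMUSG00000048450.10) had 2.78 to 5.0 CPM in 6 control DA libraries and 0 counts in control DA replicate 6. It had 7.29, 12.1, 7.05, 5.86 and 3.29 CPM in Prdm6-deficient DA. In control aorta it ranged from 4.27 to 7.15 CPM with a median of 6.50, and in Prdm6-deficient aorta it was 17.5, 11.9, 18.2, 18.8 and 20.9 CPM. All 5 Prdm6-deficient aorta libraries lay above all control aorta libraries, whereas the DA groups overlapped. In Prdm6-deficient aorta the Msx1 log2 fold change was 1.52 (0.58 to 2.45), and edgeR did not call it (adjusted p = 0.051). It was called by DESeq2 (adjusted p = 0.00857) and by edgeR with the aortic libraries alone (adjusted p = 2.16e-05). In the DA the log2 fold change was 1.08 (0.17 to 1.99, edgeR adjusted p = 0.122).

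Msx2 (ENSMUSG00000021469.9) ranged from 5.46 to 13.4 CPM in control DA with a median of 6.46, and was 6.23, 5.22, 5.68, 8.16 and 3.48 CPM in Prdm6-deficient DA. In control aorta it ranged from 3.33 to 9.21 CPM, and in Prdm6-deficient aorta it was 8.90, 6.32, 24.1, 8.42 and 17.3 CPM. Prdm6-deficient aorta replicates 3 and 5 stood above all other libraries, and the groups overlapped in both vessels. The log2 fold change was −0.46 in the DA and 0.97 in the aorta, and the difference between them, −1.43 (−2.38 to −0.48), did not pass (edgeR adjusted p = 0.0756). Of 26 tested genes of the BMP pathway around the Msx genes, 5 were lower with Prdm6 deficiency in the DA (median −0.19), and 2 higher and 1 lower in the aorta (median 0.20). The BMP antagonist Grem1 averaged 29.4 ± 10.9 CPM (SD, n = 7) in control DA and 0.415 ± 0.570 (n = 5) in Prdm6-deficient DA (log2 fold change −6.15, edgeR adjusted p = 4.73e-07). Nog, also a BMP antagonist, fell by 2.73 in the DA (edgeR adjusted p = 0.000149), and rose by 2.42 in the aorta (edgeR adjusted p = 0.00088). The genes most like Msx1 over the 23 libraries were Tshz3 (r = 0.897), Vegfc (0.895) and Zfp974 (0.891), and those most like Msx2 were Ivd (0.685), Inhba (0.679) and Zfp503 (0.676). With the group means taken out, r was 0.859, 0.872 and 0.888 for those of Msx1 and 0.508, 0.697 and 0.531 for those of Msx2. Control DA replicate 6, with 0 counts of Msx1, lies far from the other libraries and can weigh heavily on each r of Msx1.

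Snai1, Snai2 and Zeb2 bind E-box motifs and switch off epithelial genes in the epithelial-mesenchymal transition (EMT). Of the Zeb2, Snai1 and Msx1 promoters, RefSeq windows (GRCm38.p6) of 250 bases before a start that hold no annotated exon are shown. A window of Zeb2, the member that rose in both vessels, can so be read beside those of 2 members that the main edgeR fit did not call. Capitals mark the E-box CAGGTG and the CCAAT box on either strand. The Zeb2 window is chr2:45117443-45117692, the Snai1 window chr2:167537945-167538194 and the Msx1 window chr5:37824586-37824835, on the minus, plus and minus strand.
Zeb2: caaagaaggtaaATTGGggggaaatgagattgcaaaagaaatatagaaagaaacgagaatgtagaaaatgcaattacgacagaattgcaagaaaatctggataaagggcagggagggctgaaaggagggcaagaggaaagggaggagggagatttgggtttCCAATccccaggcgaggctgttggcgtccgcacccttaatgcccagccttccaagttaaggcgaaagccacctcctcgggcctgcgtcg
Snai1: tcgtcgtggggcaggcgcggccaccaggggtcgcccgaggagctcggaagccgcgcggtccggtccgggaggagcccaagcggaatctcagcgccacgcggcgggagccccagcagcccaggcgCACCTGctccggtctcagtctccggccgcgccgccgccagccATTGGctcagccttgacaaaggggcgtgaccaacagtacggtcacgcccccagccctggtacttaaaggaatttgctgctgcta
Msx1: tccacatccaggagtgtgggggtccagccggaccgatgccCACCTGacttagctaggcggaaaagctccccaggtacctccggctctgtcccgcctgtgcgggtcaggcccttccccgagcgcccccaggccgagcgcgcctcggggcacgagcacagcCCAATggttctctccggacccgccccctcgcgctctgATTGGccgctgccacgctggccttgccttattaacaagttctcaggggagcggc

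The E-box was absent from the Zeb2 window and present once each in the Snai1 and Msx1 windows (first base at −126 and −210 from the start), and 17.2% of 32851 promoter windows of this length held it. CCAAT was present 2 times in the Zeb2 window, once in that of Snai1 and 2 times in that of Msx1, beside 33.9% of all windows. TAATTG, a motif of MSX proteins, was present once in the Zeb2 window (7.17% of all windows). AGATAA of GATA factors (9.99%), AACAAT of SOX factors (9.42%) and TGANTCA of AP-1 (6.75%) were searched too, on both strands, and are not in these 3 windows. Zeb2 has other windows, at other starts, which overlap annotated exons and are not shown. None of them held the E-box, CCAAT or TAATTG, and the window chr2:45110278-45110527 held TGANTCA 2 times. GC content was 49.6% in the Zeb2 window, 70.0% in that of Snai1 and 68.0% in that of Msx1, with a median of 52.4% over all windows. Windows were matched by symbol for 5 members, also Msx2 and Prrx1, and not for Sox9, Snai2, Pax3, Gata4 and Gata6.

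Zeb2 (ENSMUSG00000026872.17, chromosome 2, 44983632 to 45117395, minus strand) ranged from 40.0 to 67.3 CPM in control DA with a median of 52.0. It was 72.1, 74.6, 81.7, 80.2 and 97.3 CPM in Prdm6-deficient DA. In control aorta it ranged from 55.3 to 82.2 CPM with a median of 69.5, and in Prdm6-deficient aorta it was 105, 106, 96.0, 87.5 and 101 CPM. In each vessel all 5 Prdm6-deficient libraries lay above all control libraries. Zeb2 rose by 0.63 on the log2 scale in the DA (0.40 to 0.87, edgeR adjusted p = 0.000328), 1.55-fold, and by 0.53 in the aorta (0.29 to 0.78, edgeR adjusted p = 0.00615), 1.45-fold. In the first and then the second series of animals the Zeb2 log2 fold changes were 0.36 and 0.81 in the DA (edgeR adjusted p = 0.301 and 0.0059) and 0.48 and 0.59 in the aorta (edgeR adjusted p = 0.97 and 0.0372). The aortic call was lost without each of 7 single libraries, which were control aorta replicates 1, 3 and 5 and Prdm6-deficient aorta replicates 1, 2, 3 and 5, with log2 fold changes of 0.48 to 0.54 and adjusted p up to 0.0209. Control DA and control aorta differed by −0.39 (edgeR adjusted p = 0.0202, not called). The antisense gene Zeb2os overlaps Zeb2 and averaged 9.75, 11.1, 13.3 and 14.2 CPM in control DA, Prdm6-deficient DA, control aorta and Prdm6-deficient aorta. The counting was not stated to use strand, so reads of both genes cannot be told apart where they overlap. Endothelial markers moved with Zeb2 in the aorta. Of 12, with Pecam1 the most abundant, 4 were higher in Prdm6-deficient aorta (median 0.54), and their sum was 1107 ± 225 CPM (SD, n = 6) in control aorta and 1567 ± 189 (n = 5) in Prdm6-deficient aorta. In the DA the sum was 1246.5 ± 157 (n = 7) in controls and 1428 ± 201 (n = 5) in Prdm6-deficient libraries. There edgeR called 0 of 12 (median 0.14), as did DESeq2 and limma-voom, and 4 had an unadjusted p below 0.05, beside 23.73% of all genes. The part of endothelial cells in the Zeb2 values was not tested.

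Snai2 (ENSMUSG00000022676.7, chromosome 16, 14705852 to 14709385, plus strand), also known as Slug, ranged from 16.9 to 27.8 CPM in control DA with a median of 21.7. It was 44.6, 23.1, 36.7, 28.9 and 43.0 CPM in Prdm6-deficient DA. Prdm6-deficient DA replicate 2, at 23.1 CPM, lay among the control libraries, and the other 4 were above them. Snai2 rose by 0.63 in the DA (0.34 to 0.93, edgeR adjusted p = 0.00317), and in the aorta its log2 fold change of 0.30 was not called (edgeR adjusted p = 0.362). The difference between the vessels was 0.33 (−0.10 to 0.76, edgeR adjusted p = 0.499). The DA call was lost with the DA libraries alone (0.63, edgeR adjusted p = 0.0295), without Prdm6-deficient DA replicate 1 (0.53, edgeR adjusted p = 0.0187) and without replicate 7 (0.55, edgeR adjusted p = 0.0165). In the first and then the second series of animals it was 0.82 and 0.49 (edgeR adjusted p = 0.112 and 0.2). In aorta libraries Snai2 ranged from 25.4 to 36.4 CPM in controls and from 31.3 to 39.8 CPM in Prdm6-deficient samples.

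Snai1, the founding Snail repressor, ranged from 17.2 to 24.6 CPM in control DA, 17.9 to 41.3 in Prdm6-deficient DA, 14.7 to 29.9 in control aorta and 17.7 to 36.4 in Prdm6-deficient aorta. These ranges overlapped, and the log2 fold changes of 0.32 in the DA and 0.34 in the aorta were not called (edgeR adjusted p = 0.357 and 0.556). Among 10 other tested EMT transcription factors 1 was higher in the DA (median 0.11) and 1 in the aorta (median 0.0041). In both it was Twist1, a helix-loop-helix factor of mesenchyme, with 33.6 ± 6.54 CPM (SD, n = 7) in control DA and 53.0 ± 9.14 (n = 5) in Prdm6-deficient DA (log2 fold change 0.66, edgeR adjusted p = 0.000484), and a log2 fold change of 1.11 in the aorta (edgeR adjusted p = 1.38e-06). Of 17 adhesion genes tested, 2 were higher and 2 lower in the DA (median −0.14), and 1 was higher and 2 lower in the aorta (median 0.10). Cdh6 rose by 1.44 (edgeR adjusted p = 0.000167) and Cdh11, a mesenchymal cadherin, by 0.50 (edgeR adjusted p = 3.71e-05) in the DA. Fn1 (fibronectin) fell by 0.79 (edgeR adjusted p = 0.000272) and Cdh3 (P-cadherin) fell by 0.79 (edgeR adjusted p = 9.35e-06) there. Cdh11 also rose in the aorta (0.52, edgeR adjusted p = 7.86e-05). Cdh6, Fn1 and Cdh3 were not called in the aorta (edgeR adjusted p = 0.815, 0.816 and 0.859).

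Likeness over the libraries placed Zeb2 nearest to Atp2b1 (r = 0.909), Lgi2 (0.899) and Postn (0.899). Snai2 was nearest to Rab34 (0.789), Foxc1 (0.785) and B9d1 (0.784), and Snai1 to Smad7 (0.728), Ifitm2 (0.698) and Dyrk1b (0.693). After the group means were taken out, r was 0.618, 0.675 and 0.471 for the genes nearest to Zeb2. It was 0.492, 0.304 and 0.646 for those of Snai2 and 0.677, 0.615 and 0.722 for those of Snai1. Postn, a matrix protein on the fibroblast list, rose with log2 fold changes of 1.38 in the DA (edgeR adjusted p = 1.38e-06) and 1.21 in the aorta (edgeR adjusted p = 3.44e-05). Of 11 fibroblast markers, 3 were higher and 2 lower in the DA (median 0.30) and 2 higher in the aorta (median −0.30), and their summed CPM was 8993 ± 2557 (SD, n = 7), 13686 ± 1108 (n = 5), 11288 ± 1039 (n = 6) and 12893 ± 946 (n = 5) in control DA, Prdm6-deficient DA, control aorta and Prdm6-deficient aorta. Col3a1 was the most abundant of them over all libraries, though Postn averaged more in Prdm6-deficient aorta. Lum rose by 1.44 in the DA (edgeR adjusted p = 8.91e-06), and Scara5 and Mfap5 had log2 fold changes of −1.76 and −1.15 there (edgeR adjusted p = 5.42e-05 and 7.75e-07). Lum also rose in the aorta (1.61, edgeR adjusted p = 8.62e-06). Scara5 and Mfap5 were not called in the aorta (−0.65 and −0.39, edgeR adjusted p = 0.246 and 0.115). The part of fibroblasts in the Zeb2 and Snai2 values was not tested.

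**Figure D3:**
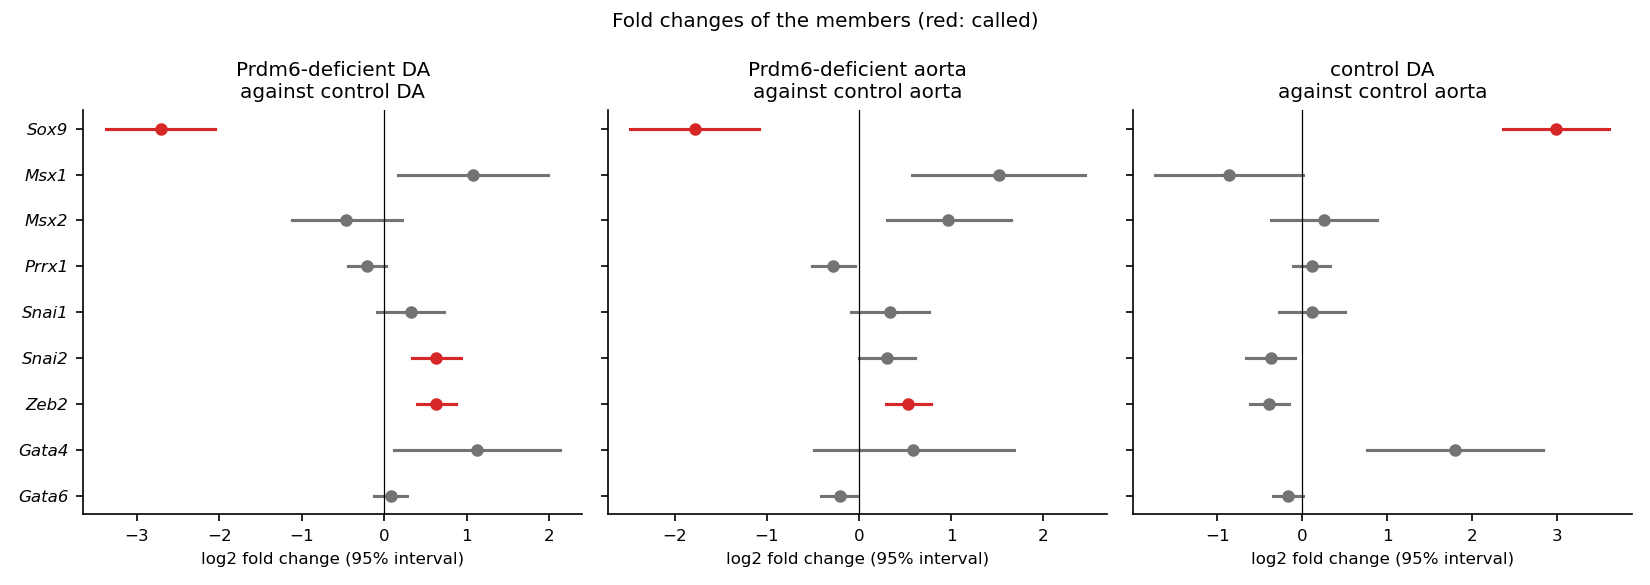
Log2 fold changes of the 9 tested members with 95% intervals in the genotype comparison of each vessel and between the control vessels, with called genes in red. Sox9 is called in all 3 panels and Zeb2 in both genotype panels, at 0.63 and 0.53.

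Prrx1 (ENSMUSG00000026586.16), a homeobox factor of limb, head and vessel mesenchyme, was called in none of the comparisons. It ranged from 69.2 to 117 CPM in control DA, 81.3 to 89.7 in Prdm6-deficient DA, 70.9 to 112 in control aorta and 70.6 to 85.6 in Prdm6-deficient aorta. The groups overlapped, and the Prrx1 log2 fold changes of −0.21 in the DA and −0.28 in the aorta were not called (edgeR adjusted p = 0.271 and 0.236). The genes most like Prrx1 were Dab2 (r = 0.861), Plce1 (0.785) and S100b (0.742), with r of 0.804, 0.674 and 0.711 after the group means were taken out. Of 27 other mesenchymal transcription factors tested, Prdm6 deficiency left 4 higher and 5 lower in the DA (median 0.17) and 5 higher and 2 lower in the aorta (median 0.35), and control DA had 9 higher and 2 lower against control aorta (median 0.50). Foxf1, a forkhead factor of visceral mesenchyme, averaged 76.3 ± 20.0 CPM (SD, n = 7) in control DA and 2.50 ± 1.60 (n = 5) in Prdm6-deficient DA, and Tbx15 24.1 ± 10 and 0.806 ± 0.899. Their log2 fold changes in the DA were −4.93 and −4.92 (edgeR adjusted p = 1.31e-06 and 7.77e-07). Foxf1 was also called lower in the aorta (−3.19, edgeR adjusted p = 0.00183), and Tbx15 was not called there (−0.93, edgeR adjusted p = 0.404). Barx1 rose by 2.69 (edgeR adjusted p = 0.00537) and Heyl, a Notch target, by 1.45 (edgeR adjusted p = 9.85e-07) in the DA. Barx1 also rose in the aorta (3.43, edgeR adjusted p = 0.00264), where Heyl was not called (0.43, edgeR adjusted p = 0.23).

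Of 25 other neural crest transcription factors tested, Prdm6 deficiency left 2 higher and 4 lower in the DA (median 0.33) and 2 higher in the aorta (median 0.51), and control DA had 6 higher and 2 lower against control aorta (median 0.44). Tfap2b, an AP-2 factor, averaged 35.9 ± 16.9 CPM (SD, n = 7) in control DA and 1.30 ± 1.43 (n = 5) in Prdm6-deficient DA (log2 fold change −4.80, edgeR adjusted p = 0.000279). Ets1, a factor of cardiac neural crest, rose by 1.40 in the DA (edgeR adjusted p = 1.13e-07) and by 1.27 in the aorta (edgeR adjusted p = 1.77e-06), and Lmo4 by 0.61 in the DA (edgeR adjusted p = 0.00303).

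Gata6 (ENSMUSG00000005836.10, chromosome 18) had the most CPM per kb of the members, and its groups lay close together. It ranged from 187 to 266 CPM in control DA, 204 to 283 in Prdm6-deficient DA, 232 to 310 in control aorta and 202 to 255 in Prdm6-deficient aorta. The log2 fold changes were 0.08 (−0.12 to 0.27) in the DA and −0.21 (−0.41 to −0.01) in the aorta, and neither was called (edgeR adjusted p = 0.695 and 0.313). Their difference was 0.29 (edgeR adjusted p = 0.287). The antisense gene 1010001N08Rik overlaps Gata6 and averaged 12.2 to 17.8 CPM in the 4 groups. The genes most like Gata6 were Gsk3a (r = 0.786), Rps2-ps10 (0.757) and Gm6277 (0.754), with r of 0.858, 0.713 and 0.692 after the group means were taken out.

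Gata4 (ENSMUSG00000021944.15, chromosome 14, 63198922 to 63271692, minus strand) had its lowest values in the aorta. In control DA it ranged from 1.88 to 12.0 CPM with a median of 7.96. In Prdm6-deficient DA it was 9.79, 21.2, 11.1, 14.5 and 15.5 CPM. In control aorta it ranged from 0.815 to 3.28 CPM with a median of 1.70, and in Prdm6-deficient aorta it was 3.87, 3.25, 0.785, 5.68 and 0.732 CPM. All 5 Prdm6-deficient DA libraries lay above all Prdm6-deficient aorta libraries, and the control groups overlapped. Gata4 was not called in any main comparison. The log2 fold change was 1.80 (0.76 to 2.83) between the control vessels (edgeR adjusted p = 0.0171) and 2.33 (1.17 to 3.49) between the Prdm6-deficient vessels (edgeR adjusted p = 0.0403). With the animal as a block both were called, at 1.78 (edgeR adjusted p = 0.00453) and 3.48 (edgeR adjusted p = 0.00785). DESeq2 also called both (adjusted p = 0.00193 and 0.00187), and edgeR called the control comparison without control DA replicate 5 (1.95, adjusted p = 0.00913) or replicate 7 (1.96, adjusted p = 0.00823). Between genotypes in the DA it was 1.13 (0.12 to 2.13, edgeR adjusted p = 0.15), and limma-voom called it (1.42, adjusted p = 0.00877).

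Gata4 is also expressed in cardiomyocytes and in the mesothelium and epicardium, and the libraries varied in markers of these cells. The summed CPM of 9 mesothelial and epicardial markers was 434, 266, 188, 473, 23.4, 94.4 and 53.1 in control DA replicates 1 to 7, where Gata4 was 10.9, 12.0, 3.06, 7.96, 2.02, 8.30 and 1.88 CPM. The libraries with 23.4 and 53.1 had the least Gata4 of the group, but replicate 3, with 188, had less Gata4 than replicate 6, with 94.4. In Prdm6-deficient DA replicates 1, 2, 5, 6 and 7 the sum was 44.8, 259.5, 12.55, 268 and 260, and replicates 1 and 5 had the least Gata4 there too. Across genotypes the order did not hold, as replicate 5 had the lowest sum of all DA libraries and 11.1 CPM of Gata4. In the aorta the sum was 44.3 to 143 CPM in controls and 12.7 to 47.65 in Prdm6-deficient libraries. Upk3b was the most abundant of these markers. Between genotypes edgeR called 0 of 9 in the DA (median −0.31, 0 at an unadjusted p below 0.05) and 0 in the aorta (median −1.94, 5 at an unadjusted p below 0.05), where DESeq2 called 1 lower. The 12 cardiomyocyte markers, with Tnnt2 the most abundant, summed to 1564 CPM in control DA replicate 1 against 42.0 to 226 in the other control DA libraries, and to 582 in Prdm6-deficient DA replicate 7 against 101 to 295 in the other 4. Between genotypes edgeR called 0 of 12 in the DA (median −0.49, 3 at an unadjusted p below 0.05), where limma-voom called 1 higher, and 0 in the aorta (median −0.19, 0 at an unadjusted p below 0.05). Between vessels, where Gata4 was higher in the DA by some fits, the medians were also above 0. For the mesothelial and epicardial markers edgeR called 0 of 9 in DA against aorta in controls (median 1.61, 8 at an unadjusted p below 0.05) and 0 in Prdm6-deficient vessels (median 3.26, 8 at an unadjusted p below 0.05), where DESeq2 called 1 and 3 higher and limma-voom 0. For the cardiomyocyte markers the medians were 1.53 and 0.98, and edgeR, DESeq2 and limma-voom called 0 of 12, with 5 and 2 at an unadjusted p below 0.05. The genes most like Gata4 were Tcf21 (r = 0.887), Emb (0.822) and Nkain4 (0.805), with r of 0.754, 0.576 and 0.643 after the group means were taken out. Tcf21 is itself a factor of epicardium and cardiac fibroblasts. The part of these cells in the Gata4 values was not tested.

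Of 17 GATA factors and cardiac partners, 3 were higher and 1 lower with Prdm6 deficiency in the DA (median 0.58) and 1 was higher in the aorta (median 0.07). Hand2, a helix-loop-helix factor of outflow mesenchyme, rose by 1.37 in the DA (edgeR adjusted p = 0.000465). Plxna2, a semaphorin receptor of cardiac neural crest, rose by 0.84 in the DA (edgeR adjusted p = 0.000305) and 0.87 in the aorta (edgeR adjusted p = 0.000643). Srf, the serum response factor, fell by 0.51 in the DA (edgeR adjusted p = 0.00625).

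Levels of different members were compared as CPM per kb of the longest protein-coding transcript. In control DA, Gata6 was highest with 70.9 CPM per kb, followed by Prrx1 (15.3), Snai1 (13.2), Snai2 (11.3), Sox9 (7.33), Zeb2 (5.74), Msx2 (3.22), Gata4 (1.94), Msx1 (1.74) and Pax3 (0.322). In Prdm6-deficient DA, Sox9 had 1.12 CPM per kb and ranked 9 of 10, whereas Snai2 (17.5) ranked 2 and Zeb2 (8.90) ranked 5. In control aorta Sox9 had 0.923 CPM per kb and ranked 8, and in Prdm6-deficient aorta it had 0.269 and ranked 9. Gata6 ranked 1 and Pax3 10 in each group. With the union of all exons as the length, Snai1 and Snai2 ranked 2 and 3 in control DA and Prrx1 4, so the order of these 3 depended on the length used.

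**Figure D4:**
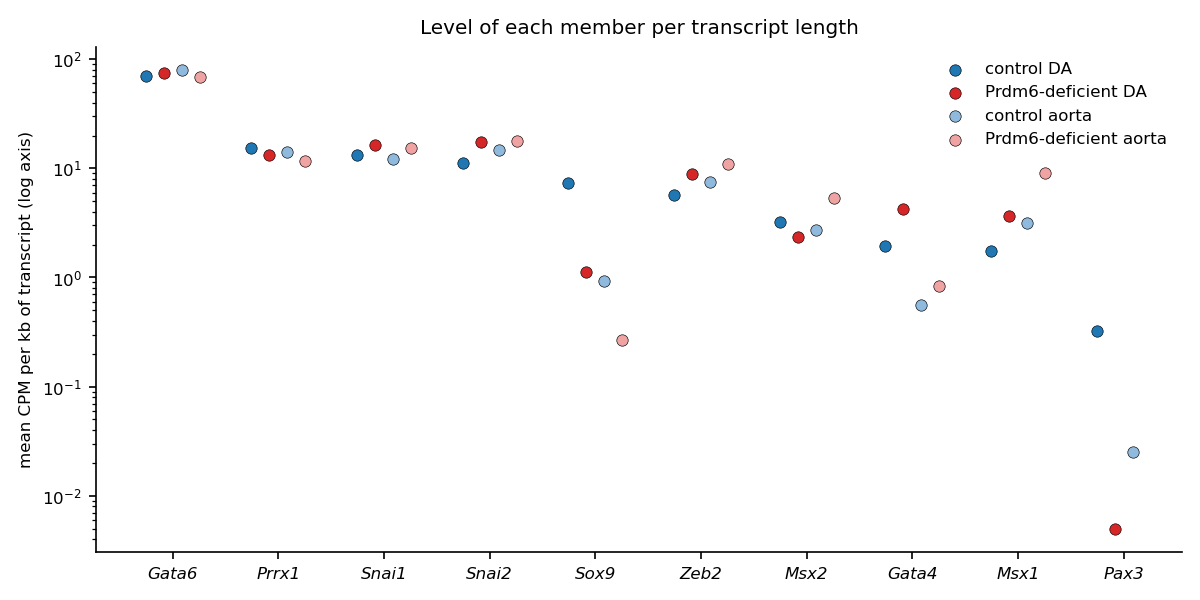
Mean CPM per kb of transcript of the 10 members in the 4 groups on a log axis, ordered by control DA. Pax3 in Prdm6-deficient aorta, at 0, is left off, and Sox9 moves from 7.33 CPM per kb in control DA to 1.12 in Prdm6-deficient DA.

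Markers of the remaining cell types were measured for the vessels as a whole. Sox9, Snai2, Zeb2 and Pax3 are also known from glial precursors. Of 12 Schwann cell and glial markers, edgeR called 3 higher in Prdm6-deficient DA (median 1.25), DESeq2 3 higher and 1 lower and limma-voom 6 higher. Among the genes called by edgeR were Fabp7 with a log2 fold change of 3.09 (edgeR adjusted p = 0.00454) and Gfra3 with 2.71 (edgeR adjusted p = 0.000788). Their sum was 28.9 to 259 CPM in control DA, with the 259 in replicate 7, and 103 to 201 in Prdm6-deficient DA. In the aorta it was 24.0 to 54.1 in controls and 30.3 to 116.9 in Prdm6-deficient libraries, where edgeR called 0 of 12 (median 0.77), as did DESeq2 and limma-voom, and 2 had an unadjusted p below 0.05. The part of glial cells in the values of these members was not tested. Of 7 autonomic neuron markers tested, with Stmn2 the most abundant in control DA, 1 was higher in the DA (median 1.24), which was Elavl4 (2.43, edgeR adjusted p = 5.21e-05). In the DA, DESeq2 also called 1 of these markers higher, and limma-voom called 0. Elavl4 was also the 1 called in the aorta (3.01, edgeR adjusted p = 6.59e-06, list median 0.66). Of 10 leukocyte markers, led by C1qa, edgeR called 0 in the DA (median 0.13, 0 at an unadjusted p below 0.05) and 0 in the aorta (median −0.99, 7 at an unadjusted p below 0.05), where DESeq2 called 3 lower and limma-voom 1. Of 5 airway and thymic epithelium markers tested, led by Krt18, edgeR called 0 in the DA (median −0.63, 2 at an unadjusted p below 0.05) and 0 in the aorta (median −1.20, 1 at an unadjusted p below 0.05), as did DESeq2 and limma-voom. The defining smooth muscle markers of the labelled vessels were present, with 0 of 12 at or below the floor in any group and Acta2 at 6698 ± 1403 CPM (SD, n = 7) in control DA.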

How the data were processed

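RNA-Seq was measured in the DA and ascending aorta. Per the labels and the paper's methods, the authors filtered reads, aligned them to mm10 with STAR and deposited RSEM expected counts per gene, not normalized. Versions of STAR and RSEM are not given in the sources used here. Counting was not stated to use strand.

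Expected counts were rounded and tested with edgeR 4.0.16 in R 4.3.3: filterByExpr, TMM scaling, 1 mean per group over 23 libraries, the quasi-likelihood test and Benjamini-Hochberg adjustment over 16463 genes. Intervals cover counting and replicate error as fitted. The floor of 3 counts was a fixed setting and was not fitted. CPM was computed with TMM scaling, and log2 CPM with a prior count of 2. Symbols and coordinates come from the GENCODE mouse annotation of mm10, which held 54723 of 54752 gene identifiers. DESeq2 1.42.0, limma 3.58.1, RLE and upper-quartile scaling, no filter, only the groups compared, covariates, blocks, subsets and leaving out each library were alternatives. The fits were tested on simulated data. There edgeR recovered 52 of 100 genes changed 2-fold and 82 of 100 changed 4-fold in the DA genotype comparison (15995 genes), so changes near 2-fold can be missed. Only these genes were changed, fewer than the 894 called in the real comparison, so the rates need not hold for the real data.

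The 10 members and the 18 gene lists were chosen with earlier results of these data known. Named genes are the members, Prdm6, from each list the 2 called genes with the highest and the 2 with the lowest log2 fold change in the DA (average log2 CPM of at least 1), the most abundant gene of each cell type list and of the Sox9 cartilage list, and the 3 genes most like each member. Not every gene that meets these rules is named.

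The labels give animal numbers, so DA and aorta libraries of the same animal pair: 6 control animals and 3 Prdm6-deficient animals or pools gave both vessels. Deviations from the group means of such pairs correlated with r of −0.005 to 0.084 over the 2000 most variable genes. The blocked values are given where they change a call. Animal numbers fall into 2 series, treated as possible batches. The series are unbalanced between genotypes. In the aorta the first held 1 control and 2 Prdm6-deficient libraries, and the second 5 and 3. With the series as a covariate, edgeR called the same members as the main fit in each comparison.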

Additional observations from a re-analysis of the deposited data

Results flagged for a closer look

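Of 39 groups of member values, 2 held a library far from the rest of its group, and of 72 groups of summed lists 8 did. The rule's rate of about 1 in 20 groups assumes normally distributed values. Pax3 was 0 in many libraries and the sums were not checked for this, so no excess over chance is read from these counts. Pax3 was at 5.17 CPM in control DA replicate 3 against 0 to 1.67 in the other control DA libraries, and at 0.530 CPM in control aorta replicate 4 against 0 to 0.0479. The same libraries stood apart in summed melanocyte markers, at 270 CPM (others 49.9 to 132) and 26.4 CPM (others 8.37 to 10.9), whose part in the Pax3 values was not tested.

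Control DA replicate 1 stood apart in cardiomyocyte markers, at 1564 CPM (others 42.0 to 226), and in skeletal muscle markers, at 245.9 CPM (others 53.1 to 88.8). Control DA replicate 7 had 259 CPM of Schwann cell and glial markers (others 28.9 to 54.7). In the aorta, control replicate 1 had 143 CPM of mesothelial and epicardial markers (others 44.3 to 76.0), Prdm6-deficient replicate 3 had 30.6 CPM of cardiomyocyte markers (others 112 to 141.5) and Prdm6-deficient replicate 4 had 20.9 CPM of airway and thymic epithelium markers (others 15.8 to 16.95).

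The genotype effect differed between the vessels (edgeR, DA minus aorta, log2) for 0 members, as with DESeq2 and limma-voom. Of the members 3 had an unadjusted p below 0.05 in edgeR, beside 15.91% of all genes. Of the 44 list genes named here 9 differed, beside 425 of all genes tested (2.58%). Many of the 44 were named for an extreme called fold change in the DA, which favours such a difference. The differences were −5.83 for Grem1 (adjusted p = 6.32e-05), −5.15 for Nog (1.18e-05), −3.99 for Tbx15 (0.000593), −2.90 for Des (4.35e-05), −2.30 for Actg2 (2.55e-06), −0.94 for Fn1 (0.00419), −0.88 for Cdh3 (0.000528), 1.69 for Cdh6 (0.00359) and 1.90 for Acan (0.00179).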

How the results depend on the processing

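Sox9 kept its call in the DA under every alternative run, with log2 fold changes of −3.18 to −2.57, and Zeb2 kept its call in the DA in all of them other than within the first series. Limits are the 5 to 7 libraries per group, the 1 control aorta library of the first series and the low counts of Pax3. Leaving out control DA replicate 1 and Prdm6-deficient DA replicate 7, the libraries highest in cardiomyocyte markers of their groups, was chosen after seeing the data, and with it 2 members and 817 of all genes were called in the DA, Snai2 no longer (0.52, edgeR adjusted p = 0.0301).

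In the DA genotype comparison, 1 member was called within the first series, and 419 and 201 of all genes within the second and first series. In the aorta, 1 member was called with limma-voom and 0 within either series, and 702, 226 and 7 of all genes were called with only the groups compared, within the second and within the first series. Between control vessels, 2 members were called with DESeq2 and with the animal block and 0 within the first series, where 20 of all genes were called. Between Prdm6-deficient vessels, 2 members were called with DESeq2, and 0 with limma-voom, only the groups compared, without the pooled libraries and within either series. There the count of all genes was 146 with DESeq2, 83 with only the groups compared, 11 with the animal block, 15 without the pooled libraries and 6 and 3 within the second and first series. For the difference of genotype effects it was 645 with DESeq2, 238 with the animal block and 166 and 0 within the second and first series. Subsets hold fewer libraries, and the cause of the other shifts was not tested. Leaving out 1 library gave 1 to 2 members in the aorta and between control vessels, and 0 to 1 members and 22 to 50 of all genes between Prdm6-deficient vessels.

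Replicate numbers do not in general mark animals, though some same-numbered control DA and control aorta libraries share an animal. Same-numbered libraries of other animals correlated with a median r of −0.001. With a replicate block, 1 member, Sox9, was called in the aorta and Zeb2 no longer (0.54, edgeR adjusted p = 0.0107), and 0 members and 16 of all genes between Prdm6-deficient vessels. The animal block was run for the vessel comparisons and the difference of genotype effects, not for the genotype comparisons, and there changed no call of a member other than those of Sox9 and Gata4 given above.

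Snai1, whose fold changes are also the member medians, moved to 0.11 to 0.44 in the DA and 0.17 to 0.49 in the aorta when 1 library was left out. Msx2 moved to −0.62 to −0.28 and 0.63 to 1.15 in the same fits, Gata6 in the DA to 0.01 to 0.13 and Gata4 in the aorta to 0.18 to 0.84, and none of these was called. In the DA, Msx2 was −0.97 within the second series. Within the first and then the second series, Gata4 in the DA was 0.64 and 1.56, Snai1 0.55 and 0.09 and Prrx1 −0.34 and −0.17. These were not called either. Reversed signs were all of uncalled values. Within the first series, Msx2 in the DA was 0.07, Prrx1 in the aorta 0.11, Snai1 between control vessels −0.24, and the difference of genotype effects was 0.33 for Snai1, −0.12 for Zeb2 and −0.44 for Prrx1. Within the second series, Gata6 in the DA was −0.12, Prrx1 between control vessels −0.0029, and between Prdm6-deficient vessels Snai1 was −0.02 and Gata6 −0.01. The animal block gave −0.02 for Snai1 between Prdm6-deficient vessels. For the difference of genotype effects, limma-voom gave 0.20 for Msx1, and Snai1 was 0.17 without the pooled libraries. Leaving out 1 library gave −0.12 to 0.27 for Snai1 and −0.14 to 0.07 for Snai2 between Prdm6-deficient vessels, and for the difference of genotype effects −0.23 to 0.16 for Snai1 and −0.004 to 0.13 for Prrx1. The causes were not tested.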
